A study of Mus musculus with 6 samples.

Results

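The chemokine receptor genes studied were *Ccr1*, *Ccr2*, *Ccr3*, *Ccrl2*, *Cx3cr1*, *Cxcr4* and *Ackr3*, that is 7 of the 36137 mouse genes with a transcript in the deposited tables. They were selected on measured values from these same libraries, so the differences between genotypes given for them are a description and carry no test. RNA was sequenced from bone marrow-derived macrophages (BMDMs, macrophages grown out of bone marrow cells in a dish) after 8 hours of hypoxia serum starvation (HSS), a culture model of ischemia with 2.1% oxygen by the sample labels. There were 3 WT and 3 Drp1KO libraries, numbered 1 to 3 in each group.

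The WT cells were *LysM*-Cre+/- *Drp1*+/+ and the Drp1KO cells *LysM*-Cre+/- *Drp1* fl/fl, so both genotypes carried the Cre recombinase, which is driven by the lysozyme M promoter that is active in myeloid cells. Drp1, the product of *Dnm1l*, is the GTPase that cuts mitochondria in fission. Cells were differentiated for 7 days with medium conditioned by L929 cells, a source of M-CSF, and every library had HSS, so no comparison with cells kept in oxygen and serum can be made here. The sample titles call the 3 libraries of a group biological replicates. The methods describe marrow pooled from young adult mice of each genotype and do not say whether each replicate had its own pool, and p-values measure the spread between these libraries alone.

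Chemokine receptors are 7-helix membrane proteins that, on binding a chemokine, release Gi-type G proteins and steer the cell along the chemokine gradient. *Ccr2* brings classical monocytes out of the bone marrow and into tissue, *Cx3cr1* marks patrolling monocytes and many resident macrophages, *Ccr1* and *Ccr3* bind inflammatory CC chemokines, and *Cxcr4* holds cells in niches that make *Cxcl12*. *Ccrl2* and *Ackr3* are atypical receptors: they do not couple to G proteins in the usual way, and present chemerin (*Ccrl2*) or scavenge *Cxcl12* (*Ackr3*).

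Estimated reads per library ran from 23389488 to 32231206. The targeted gene was read first: *Dnm1l* had 72.7, 69.9 and 75.1 CPM (counts scaled to library size by TMM) in WT libraries 1 to 3 and 58.7, 60.7 and 66.3 CPM in Drp1KO libraries 1 to 3, groups that did not overlap. Its log2 fold change was -0.23 ± 0.09 (SE), with an adjusted p of 0.248 in edgeR's quasi-likelihood test, and this sum over transcripts also holds reads from exons outside a floxed segment, so it checks the labels only in part. Macrophage genes were abundant: *Lyz2* (lysozyme), *Cd68* and *Adgre1* (F4/80) averaged 11515, 1098 and 856 TPM (reads per transcript length, scaled to library size) over the 6 libraries. Libraries 1 of both groups deviated from their group means together (Pearson's r of 0.510 over 12248 genes), and values from libraries 2 and 3 alone are therefore given beside the differences of the members.

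Of the 7 genes, 5 lie on chromosome 9 of GRCm39. *Ccrl2* is at chr9:110883554-110886591 (minus strand) and *Cx3cr1* at chr9:119877749-119898945 (minus), while *Ccr1* at chr9:123762161-123768734 (minus), *Ccr3* at chr9:123822009-123831726 (plus) and *Ccr2* at chr9:123901982-123913594 (plus) stand close together. *Cxcr4* at chr1:128515936-128520044 (minus) and *Ackr3* at chr1:90131689-90144473 (plus) are on chromosome 1. *Ccr1* and *Ccr3* carry a stretch of 47 coding bases that is identical base for base (chr9:123763648-123763694, minus strand, and chr9:123829513-123829559, plus strand). It is printed 5′ to 3′ on the coding strand because kallisto assigns reads by exact words of sequence, so a read that lies wholly inside it cannot be assigned from its sequence.
Ccr1 and Ccr3: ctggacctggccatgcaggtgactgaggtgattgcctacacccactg

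Of all 31-base words in the transcripts of *Ccr2* in the GENCODE vM39 models, 3.45% also occurred in another gene. That share was 2.01% for *Cx3cr1*, 0.641% for *Ccr1*, 0.524% for *Ccr3*, 0.229% for *Ccrl2*, 0.110% for *Cxcr4* and 0.0298% for *Ackr3*. The estimated reads of *Ccr2* (47.0 to 143) and *Cx3cr1* (30.3 to 75.2), the members with the largest shares, were not whole numbers, whereas those of the other 5 members lay within 0.01 of a whole number in each library. The part of shared words in the values of *Ccr2* and *Cx3cr1* was not tested, and their values are uncertain to that extent. The vM39 models differ in length from some in the deposited tables (*Ccr2-201* has 4194 bases in vM39 and 2999 in the tables).

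The levels of the 7 genes spanned more than 3 orders of magnitude per transcript length, a span that rests on *Ackr3*, which was at the floor. The means of the other members ran from 0.652 to 70.6 TPM. *Cxcr4* was the most abundant, at 70.6 ± 16.4 TPM (SD, n = 6 libraries, range 52.0 to 98.6), above 83.8% of the genes that averaged at least 1 TPM and above *Ccr1* in 6 of 6 libraries. *Ccr1* (31 ± 11.3 TPM, range 17.2 to 50.1) and *Ccrl2* (29.0 ± 9.47 TPM, range 18.7 to 45.9) came next and could not be ordered: *Ccr1* was above *Ccrl2* in 3 of the 6 libraries. *Ccr3* followed at 3.41 ± 0.932 TPM, then *Ccr2* at 1.57 ± 0.475 TPM and *Cx3cr1* at 0.652 ± 0.134 TPM. *Ccrl2* was above *Ccr3*, and each of these 3 was above the next, in 6 of 6 libraries, with ranges that did not overlap. *Ackr3* was at the floor: its estimated counts were 0, 2 and 0 in WT libraries 1 to 3 and 0, 2 and 1 in Drp1KO libraries 1 to 3, none above the 3 counts taken as the floor (0.0917 to 0.136 CPM by library), so no fold change is given for it. Of the summed TPM of the 7 genes, *Cxcr4* took 46.3% to 58.2%, *Ccr1* 14.2% to 33.2% and *Ccrl2* 15.1% to 25.5% in a library.

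**Figure D1:**
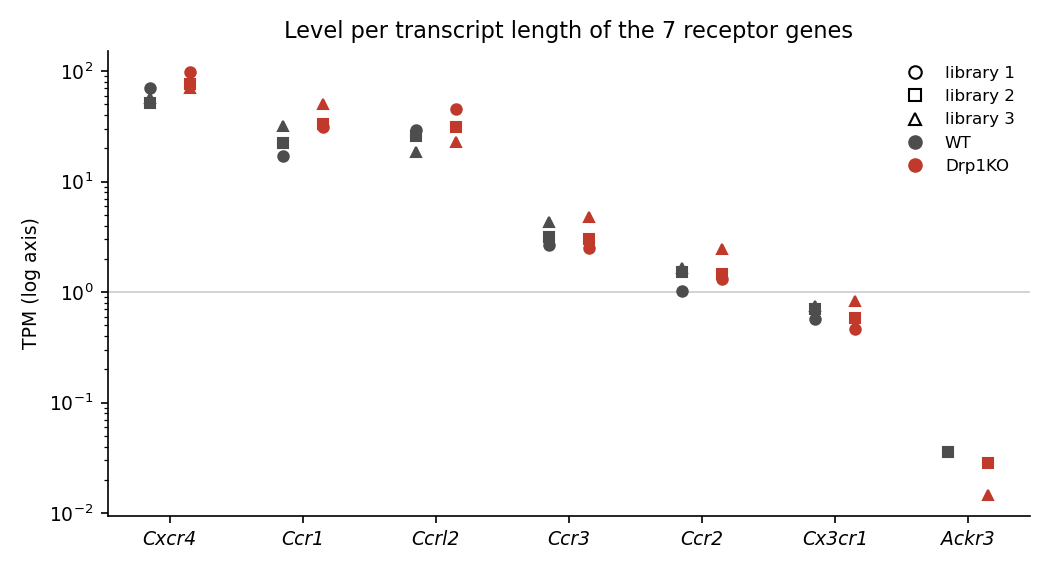
TPM (log axis) of the 7 receptor genes in each library, in order of their mean, with WT in grey, Drp1KO in red and a marker shape for each library number. *Cxcr4* lies at 52.0 to 98.6 TPM, *Ccr1* and *Ccrl2* cross between libraries, and *Ackr3* is drawn only in the 3 libraries where it is not listed at 0.

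Of the 7 members, 6 passed the filter of 10 counts in all and entered the fit, and *Ackr3* did not. *Ccr1*, *Ccrl2* and *Cxcr4* were higher in the Drp1KO library than in the WT library of the same number in each of the 3 pairs, as were 23.7% of all genes tested in that direction. *Ccr2*, *Ccr3* and *Cx3cr1*, the less abundant ones, were not. Only *Ccr1* had groups that did not overlap, which held, in this direction, for 11.7% of all genes tested.

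*Ccr1*, the receptor for *Ccl3*, *Ccl5* and other inflammatory CC chemokines, had 27.0, 33.8 and 45.0 CPM in WT libraries 1 to 3 and 52.3, 52.2 and 75.7 CPM in Drp1KO libraries 1 to 3. Each Drp1KO library was above each WT library, and library 3 was the highest of its group in both. The means were 35.3 ± 9.14 CPM in WT and 60.0 ± 13.6 CPM in Drp1KO (SD, n = 3 each), and Drp1KO was 1.70-fold higher by the fit, 0.77 ± 0.20 (SE) on the log2 scale. The ratios of Drp1KO to WT within libraries 1, 2 and 3 were 1.94, 1.54 and 1.68, and the log2 fold change was 0.69 with libraries 2 and 3 alone and ran from 0.57 to 0.97 when a library was left out.

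*Cxcr4*, the receptor for *Cxcl12*, had 82.5, 59.8 and 61.3 CPM in WT libraries 1 to 3 and 124, 91.9 and 81.1 CPM in Drp1KO libraries 1 to 3. The groups overlapped through 1 library on each side, WT library 1 lying just above Drp1KO library 3. The log2 fold change was 0.54 ± 0.17 (SE), or 1.46-fold, from means of 67.8 ± 12.7 and 98.9 ± 22.2 CPM (SD, n = 3 each). The ratios within the pairs were 1.50, 1.54 and 1.32, and the log2 fold change was 0.51 with libraries 2 and 3 alone and ran from 0.34 to 0.70 when a library was left out. *Cxcr4-201* held 98.6% of the gene's reads on average.

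*Ccrl2*, which binds chemerin and holds it at the cell surface, had 37.2, 32.6 and 22.1 CPM in WT libraries 1 to 3 and 64.0, 41.9 and 29.2 CPM in Drp1KO libraries 1 to 3. The groups overlapped, since Drp1KO library 3 lay below WT libraries 1 and 2, and in both groups library 1 was the highest and library 3 the lowest. The log2 fold change was 0.55 ± 0.26 (SE), or 1.47-fold, from means of 30.6 ± 7.72 and 45.0 ± 17.6 CPM (SD, n = 3 each). It ran from 0.21 without Drp1KO library 1 to 0.79 without Drp1KO library 3, and was 0.38 with libraries 2 and 3 alone.

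**Figure D2:**
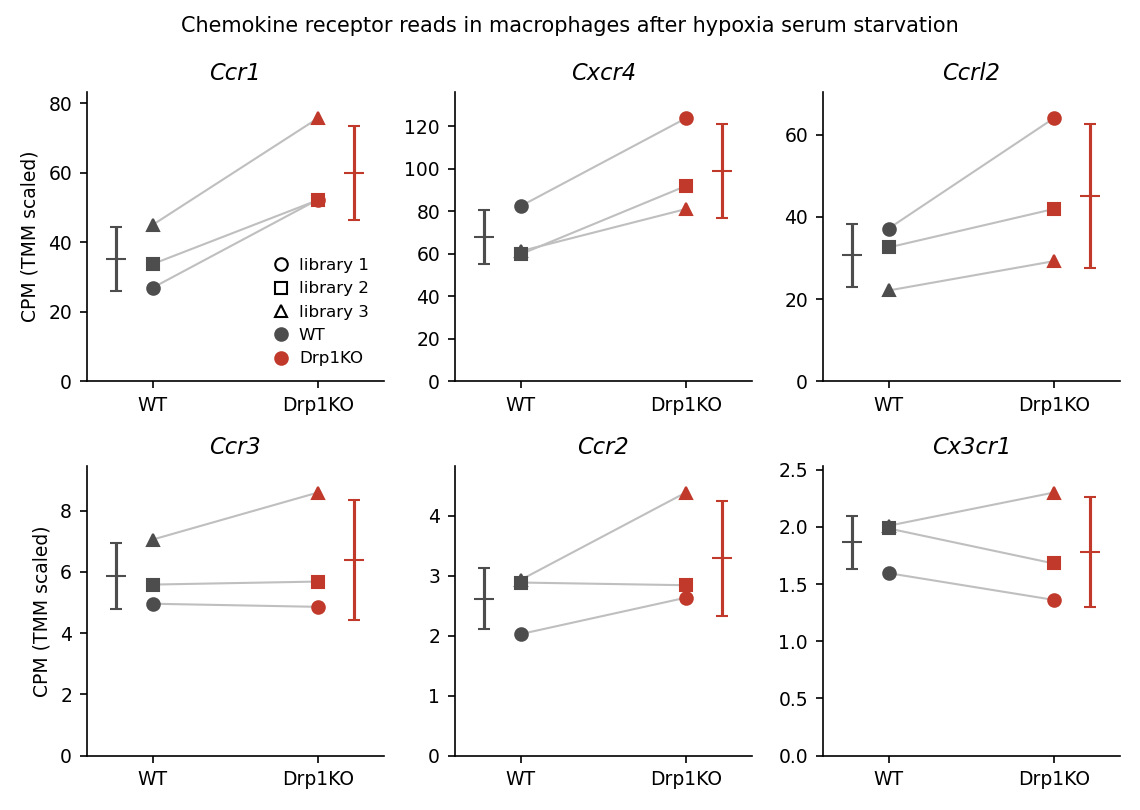
CPM (linear axes from 0) of the 6 receptor genes above the floor in each library, WT in grey and Drp1KO in red, with lines between libraries of the same number and bars for the mean and SD of each group (n = 3). Each line rises for *Ccr1*, *Cxcr4* and *Ccrl2*, and only for *Ccr1* do the groups not overlap.

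The remaining 3 were less abundant. *Ccr2*, the receptor for *Ccl2*, had 2.03, 2.89 and 2.93 CPM in WT libraries 1 to 3 and 2.63, 2.84 and 4.39 CPM in Drp1KO libraries 1 to 3. The groups overlapped and the log2 fold change of 0.33 ± 0.26 (SE) fell to 0.07 without Drp1KO library 3 and was 0.31 with libraries 2 and 3 alone. *Ccr3*, the eotaxin receptor of eosinophils and basophils, had 4.96, 5.58 and 7.05 CPM in WT libraries 1 to 3 and 4.86, 5.68 and 8.59 CPM in Drp1KO libraries 1 to 3, with a log2 fold change of 0.12 ± 0.23 (SE). The ratio of Drp1KO to WT lay near 1 in libraries 1 (0.980) and 2 (1.02) and was 1.22 in libraries 3, the groups overlapped, and the log2 fold change ran from -0.15 to 0.27 when a library was left out and was 0.17 with libraries 2 and 3 alone. *Cx3cr1*, the fractalkine receptor, had 1.60, 1.99 and 2.01 CPM in WT libraries 1 to 3 and 1.36, 1.68 and 2.30 CPM in Drp1KO libraries 1 to 3, with a log2 fold change of -0.06 ± 0.27 (SE) and overlapping groups. Its estimated counts were 30 to 75 reads per library, and with a library left out its log2 fold change ran from -0.28 to 0.08 (-0.01 with libraries 2 and 3 alone). The difference of *Cx3cr1* was smaller than its SE.

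Across all 18506 genes tested with edgeR, 621 (3.36%) had an adjusted p under 0.05, 424 of them (2.29%) higher in Drp1KO. Of the 6 members tested, 0 were among them. At an unadjusted p under 0.05 the same test counted 2 members (*Ccr1* and *Cxcr4*) and 16.4% of all genes, and DESeq2 at an adjusted p under 0.05 counted the same 2 members and 6.24% of all genes. With the replicate number as a block, the members counted were 3 (*Ccr1*, *Ccrl2* and *Cxcr4*), beside 12.0% of all genes. The members were selected on this contrast, so nothing is read from these counts. In bulk RNA, a change in the number of cells of a type and a change in RNA per cell cannot be told apart.

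Several members shared an ordering of libraries within the groups. Libraries 1 were the lowest of their group in both groups for *Ccr2*, *Ccr3* and *Cx3cr1*, that is 3 of the 6 tested, as for 24.9% of all genes tested. They were the highest in both groups for *Cxcr4* and *Ccrl2*, that is 2 of 6, as for 23.3% of all genes tested. In each group the library with the highest *Ccr1* had the lowest *Ccrl2*.

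Only *Ccrl2* had enough reads on more than 1 transcript for its transcripts to be compared. *Ccrl2-203* took 83.3% ± 2.76 of the gene's reads in WT and 84.5% ± 0.902 in Drp1KO (SD, n = 3 each), and *Ccrl2-201* took 16.2% ± 2.72 and 15.3% ± 0.763. The differences of 1.22 and -0.88 percentage points were smaller than the SD within WT. *Ccr1* and *Ccr3* had only 1 transcript each among those matched, so their shares were fixed. Reads of *Ccr2* fell mostly on *Ccr2-201* (64.6% on average) and *Ccr2-203* (26.3%).

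Promoter sequence was read for the 3 members that were higher in each pair, as the 250 bases before the start of the most abundant transcript in GRCm39, printed 5′ to 3′ on the gene's strand. Capitals mark each match to the 3 motifs searched on both strands, of which ACGTG and GCGTG are cores of the hypoxia response element and GAGGAAG is a core of the sites of PU.1, a macrophage lineage factor. The windows are chr9:123768735-123768984 for *Ccr1*, chr9:110886592-110886841 for *Ccrl2* and chr1:128520045-128520294 for *Cxcr4*, each on the minus strand.
Ccr1: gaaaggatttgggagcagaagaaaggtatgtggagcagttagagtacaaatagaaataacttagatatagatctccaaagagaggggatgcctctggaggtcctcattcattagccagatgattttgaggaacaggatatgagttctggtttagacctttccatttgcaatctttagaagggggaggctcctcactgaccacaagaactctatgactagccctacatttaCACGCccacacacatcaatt
Ccrl2: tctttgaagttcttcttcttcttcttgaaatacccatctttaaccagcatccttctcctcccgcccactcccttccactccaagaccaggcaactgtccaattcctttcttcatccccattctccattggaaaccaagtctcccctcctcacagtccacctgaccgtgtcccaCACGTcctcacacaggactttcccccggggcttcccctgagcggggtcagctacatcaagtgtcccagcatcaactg
Cxcr4: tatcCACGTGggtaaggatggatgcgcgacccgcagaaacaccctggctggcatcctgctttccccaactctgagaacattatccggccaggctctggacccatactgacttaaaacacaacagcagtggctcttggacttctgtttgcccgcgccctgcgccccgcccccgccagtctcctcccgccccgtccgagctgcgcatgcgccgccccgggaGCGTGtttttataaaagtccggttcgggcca

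The *Cxcr4* window held CACGTG, in which ACGTG is read on both strands with 4 bases in common, starting 246 bases before the start, and GCGTG 31 bases before it. The *Ccrl2* window held ACGTG on the opposite strand, 77 bases before the start, and the *Ccr1* window GCGTG on the opposite strand, 20 bases before the start. Among the other members, GCGTG was in the windows of *Ccr2* and *Ackr3*, and 0 of the 3 motifs in those of *Ccr3* and *Cx3cr1*. These are short words: of 21664 promoter windows of the same length, 16.1% held ACGTG, 29.0% GCGTG and 10.4% GAGGAAG. A match is a description of the letters and not a site of binding.

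Of the 16 other chemokine receptor genes listed here, 12 were tested and 0 passed the threshold in edgeR (1 at an unadjusted p under 0.05, 0 in DESeq2 and 0 with the replicate block). Over all genes tested these shares were 3.36%, 16.4%, 6.24% and 12.0% in turn. *Cxcr6*, the receptor for Cxcl16, had 0.690, 1.54 and 0.886 CPM in WT libraries 1 to 3 and 1.59, 1.74 and 2.42 CPM in Drp1KO libraries 1 to 3. Its groups did not overlap, which held, in this direction, for 11.7% of all genes tested. The log2 fold change was 0.88 ± 0.35 (SE; adjusted p = 0.232, edgeR). *Ccr9*, second in TPM, did not pass either (0.21 ± 0.30, adjusted p = 0.818, edgeR). *Ccr6*, the third, had 3 reads over the WT libraries and 15 over the Drp1KO libraries, 11 of them in Drp1KO library 3, so no fold change is read from it (adjusted p = 0.409, edgeR). The median log2 fold change was 0.21 over the 12 genes, beside 0.00 over all genes tested, and fell to 0.01 without WT library 1 and 0.06 without Drp1KO library 3 (0.01 to 0.30 with a library left out).

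Of the 16 ligands and ligand precursors listed for the 7 receptors, 15 were tested and 4 rose in Drp1KO, with none lower (26.7%, beside 3.36% of all genes tested in either direction). The ligand list, like the other lists here, was chosen with earlier results of these data known, so its share is given as a description. Among ligands of *Ccr1* and *Ccr3*, *Ccl5* went from 2.60 ± 0.822 to 6.40 ± 0.920 CPM (SD, n = 3 each; log2 fold change 1.31 ± 0.25, adjusted p = 0.0203, edgeR), and *Ccl9*, a *Ccr1* ligand, from 261 ± 28.1 to 436 ± 108 CPM (0.74 ± 0.16, adjusted p = 0.0368, edgeR). *Ccl7*, a ligand of *Ccr1*, *Ccr2* and *Ccr3*, went from 0.617 ± 0.141 to 1.83 ± 0.0766 CPM (1.58 ± 0.30, adjusted p = 0.0208, edgeR), and *Ccl8* from 1.67 ± 0.819 to 4.85 ± 0.758 CPM (1.56 ± 0.32, adjusted p = 0.0263, edgeR). Adjusted p of these 4 ligands ran up to 0.189 when a library was left out, and each lost the threshold without WT library 2, WT library 3 or Drp1KO library 2, *Ccl7* and *Ccl9* also without Drp1KO library 3. *Ccl6* (0.19 ± 0.21, adjusted p = 0.752, edgeR) and *Mif* (-0.07 ± 0.13, adjusted p = 0.860, edgeR), also among the 3 most abundant, did not pass. *Cxcl12*, the ligand of *Cxcr4* and *Ackr3*, and *Cx3cl1*, the ligand of *Cx3cr1*, had at most 0.227 and 0.999 CPM in a library. With the replicate block, 7 ligands passed, 6 higher and 1 lower (46.7%, beside 12.0% of all genes tested). With libraries 2 and 3 alone the log2 fold changes of *Ccl5*, *Ccl7*, *Ccl8* and *Ccl9* were 1.50, 1.75, 1.98 and 0.95. The median log2 fold change over the 15 tested was 0.41, with 0.25 without Drp1KO library 2, 0.82 without WT library 1, 0.87 with libraries 2 and 3 alone and 0.73 with the genes kept by filterByExpr.

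**Figure D3:**
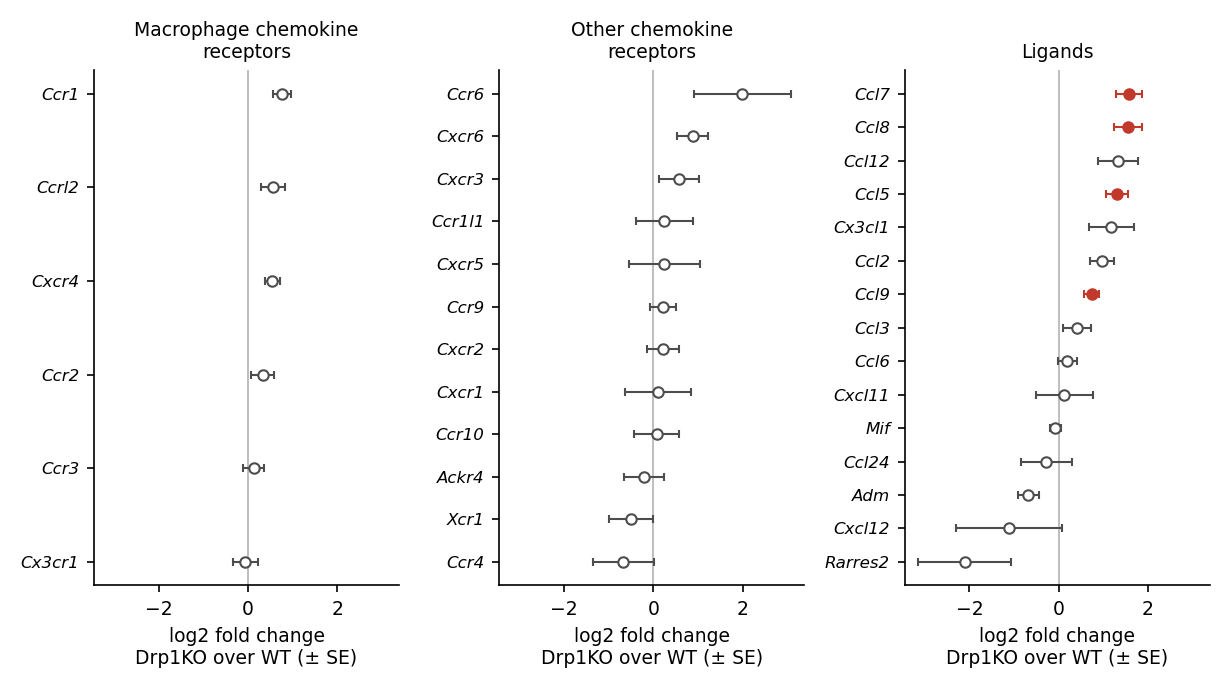
Log2 fold change of Drp1KO over WT with its SE for the 6 receptor genes tested, the 12 other chemokine receptors and the 15 ligands tested. Filled red points have an edgeR adjusted p under 0.05 (*Ccl5*, *Ccl7*, *Ccl8* and *Ccl9*), and the 6 receptor genes on the left are drawn without a call because they were selected on this contrast. *Ccr6* rests on 3 reads in WT and 15 in Drp1KO.

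The other receptor of chemerin, *Cmklr1*, is a signalling receptor of macrophages and had 72.7, 47.2 and 51.2 CPM in WT libraries 1 to 3 and 53.1, 43.2 and 34.0 CPM in Drp1KO libraries 1 to 3. The groups overlapped, and its log2 fold change was -0.39 ± 0.19 (SE; adjusted p = 0.340, edgeR, and 0.0235 with the replicate block). *Cmklr2* had at most 0.579 CPM, and chemerin itself (*Rarres2*) at most 0.375 CPM.

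Of 33 genes listed for signalling downstream of the receptors (G proteins, receptor kinases, arrestins, RGS proteins, phospholipases, PI3-kinases and Rac regulators), 32 were tested, 1 rose and 1 fell (6.25%, beside 3.36% of all genes tested). *Rgs1*, which speeds the shut-off of Gi signals, went from 84.4 ± 5.43 to 212 ± 30.6 CPM (SD, n = 3 each; log2 fold change 1.33 ± 0.12, adjusted p = 0.000389, edgeR) and passed under each of the 14 alternatives. *Rgs10*, of the same family, fell from 140 ± 11.0 to 102 ± 5.37 CPM (log2 fold change -0.46 ± 0.10, adjusted p = 0.0306, edgeR), and lost the threshold when WT library 2, WT library 3, Drp1KO library 2 or Drp1KO library 3 was left out, with an adjusted p up to 0.129. *Gnai2* (-0.03 ± 0.14, adjusted p = 0.961, edgeR) and *Gnb1* (0.15 ± 0.12, adjusted p = 0.618, edgeR), the most abundant of the list, did not pass. With the replicate block 6 genes passed, 3 in each direction (18.8%, beside 12.0% of all genes tested), and the median log2 fold change of the list was 0.01.

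Markers of other cell types that carry these receptors were read in the same libraries. Monocyte markers (8 genes) summed to 28.1 to 33.5 CPM in WT and 42.3 to 56.7 CPM in Drp1KO libraries. Of these 8, 2 passed in edgeR (25%, beside 3.36% of all genes tested). *Spn* (CD43) rose (log2 fold change 0.95 ± 0.19, adjusted p = 0.0229, edgeR) and *Treml4* fell (-1.25 ± 0.26, adjusted p = 0.0315, edgeR). Both lost the threshold without WT library 2, WT library 3 or Drp1KO library 3, and *Treml4* also without WT library 1 or Drp1KO library 2. *Chil3* (Ym1), second in TPM, had a log2 fold change of 0.81 ± 0.41 (adjusted p = 0.377, edgeR) and ratios within the pairs of 2.07, 1.66 and 1.73. With the replicate block 4 monocyte markers passed (50%, beside 12.0% of all genes tested): *Spn*, *Chil3* (adjusted p = 0.00590, edgeR) and *Ly6c2* (adjusted p = 0.0347, edgeR) higher, and *Treml4* lower. Neutrophil markers (11 genes) summed to 137 to 141 CPM in WT and 163 to 262 CPM in Drp1KO, and *Ly6g* was at 0 in the 6 libraries. Of the 8 tested, 0 passed the threshold in edgeR, 5 had an unadjusted p under 0.05, 2 passed in DESeq2 and 5 with the replicate block. Over all genes tested these shares were 3.36%, 16.4%, 6.24% and 12.0% in turn. The neutrophil markers with the highest TPM, *S100a9*, *Mmp8* and *S100a8*, had log2 fold changes of 1.30 ± 0.42, 0.86 ± 0.29 and 1.38 ± 0.42 (adjusted p of 0.139, 0.161 and 0.122 in edgeR, and 7.85e-05, 0.0232 and 0.00145 with the replicate block), and their groups overlapped. The groups of *Ngp* (ratios within the pairs of 4.74, 2.29 and 2.02) and *Ltf* (4.30, 2.04 and 1.52) did not overlap, which held, in this direction, for 11.7% of all genes tested. *Csf3r* did not rise, with 45.2, 47.0 and 43.6 CPM in WT libraries 1 to 3 and 44.2, 45.7 and 41.7 CPM in Drp1KO libraries 1 to 3. Its groups overlapped, and its log2 fold change was -0.05 ± 0.09 (adjusted p = 0.889, edgeR). The median log2 fold change of the 8 neutrophil markers tested was 1.16, beside 0.00 over all genes tested. The sums of both lists were higher in each Drp1KO library than in each WT library, as was *Ccr1*. Without *Spn*, the most abundant of its list, the monocyte sums overlapped (10.3, 13.6 and 13.4 CPM in WT libraries 1 to 3 and 9.13, 14.5 and 16.0 CPM in Drp1KO libraries 1 to 3) and were lower in Drp1KO in libraries 1. Without *Mmp8* the neutrophil sums overlapped too (52.1, 66.1 and 64.7 CPM in WT and 64.8, 94.1 and 88.1 CPM in Drp1KO), but were higher in Drp1KO in each of the 3 pairs. The part of these markers in the values of *Ccr1*, *Cxcr4* and *Ccrl2* was not tested.

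Eosinophil, basophil and mast cell markers (8 genes) summed to 1.12 to 1.50 CPM in WT and 1.13 to 1.53 CPM in Drp1KO, with *Mcpt8* and *Fcer1a* at 0 and *Prg2* and *Epx* at no more than 1 count in a library, beside the 4.86 to 8.59 CPM of *Ccr3*. The highest of these, *Cpa3*, *Siglecf* and *Il5ra*, averaged 0.401, 0.352 and 0.158 TPM. Dendritic cell markers (7 genes) summed to 44.5 to 62.9 CPM in WT and 31.1 to 50.7 CPM in Drp1KO (without *Itgax*, 3.92 to 4.74 and 2.22 to 3.54 CPM, which did not overlap). Lymphocyte markers (9 genes) summed to 308 to 324 CPM in WT and 124 to 248 CPM in Drp1KO, nearly all of it *Cd4*. Without *Cd4* the lymphocyte sums were 3.28 to 5.28 CPM in WT and 3.18 to 4.66 CPM in Drp1KO, which overlapped. *Cd4* had a log2 fold change of -0.90 ± 0.22 (adjusted p = 0.0595, edgeR, and 0.00228 with the replicate block). The highest were *Itgax* (16.2 TPM), *Clec9a* (0.805) and *Zbtb46* (0.671) among the dendritic and *Cd4* (104 TPM), *Cd3g* (1.55) and *Cd8a* (0.683) among the lymphocyte markers. Of these 3 lists, 15 genes were tested and 0 passed in edgeR (3 at an unadjusted p under 0.05, 1 in DESeq2 and 1 with the replicate block). Over all genes tested these shares were 3.36%, 16.4%, 6.24% and 12.0% in turn. Of the 10 macrophage markers, 4 passed in edgeR (40%, beside 3.36% of all genes tested). *Fcgr1* rose (1.34 ± 0.11, adjusted p = 0.000322, edgeR), and *Csf1r*, *Mertk* and *Mrc1* fell (log2 fold changes of -0.52, -0.52 and -0.42, adjusted p of 0.0340, 0.0236 and 0.0407, edgeR). These 3 lost the threshold without WT library 2, WT library 3, Drp1KO library 2 or Drp1KO library 3, and *Csf1r* and *Mrc1* also without WT library 1.

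The genes whose log2 CPM followed a member most closely over the 6 libraries were looked up among the 7951 other genes that averaged 10 CPM or more. For *Cxcr4* they were *Cox5a*, *Ddit4* and *Tnfrsf26* (Pearson's r from 0.994 to 0.995), for *Ccrl2* *Adra1a*, *Arl8b* and *Mief1* (0.991 to 0.995) and for *Ccr1* *Nipa1* and *Kdm6a* (0.988 to 0.991). For *Ccr3* they were *Bace1*, *Fam199x* and *Phykpl* (0.977 to 0.988), for *Ccr2* *Eif5a2*, *Tmem64* and *Parp8* (0.966 to 0.987) and for *Cx3cr1* *Invs*, *Mbd4* and *Cdan1* (0.977 to 0.993). These values are the highest of 7951 over 6 points that share their libraries, genotypes and depth, and are given as a description.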

How the data were processed

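RNA from 6 cultures, 3 WT and 3 Drp1KO after HSS, was sequenced by the authors. They counted reads with kallisto (0.46.1 in the submitters' processing notes) against Ensembl cDNA sequences of GRCm39, of a release not given in the sources used here, and deposited for each library the estimated count and the TPM of each of 116873 transcripts. The deposited estimated counts are not scaled between libraries, and TPM is scaled for transcript length and library size. Tool notes and paper give different DESeq2 versions, oxygen and L929 medium, and the oxygen printed is that of the labels.

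Transcripts were matched by identifier, without version, to GENCODE vM39 (99.4% matched; 0.542% to 0.575% of a library's counts lay on the others and were left out). Estimated counts were summed per gene and rounded. The test was edgeR 4.0.16 (R 4.3.3), TMM and the quasi-likelihood test on 18506 genes with at least 10 counts in all, with Benjamini-Hochberg adjusted p under 0.05. SE was the absolute log2 fold change over the square root of F. In simulated counts for this comparison (18126 genes), 79% of 200 genes changed 2-fold were recovered and 10 unchanged genes were called. The changed genes were drawn from those averaging at least 1 CPM, and no smaller change was simulated. Simulated libraries had no deviations shared between libraries of the same number. Members, gene lists and tests were chosen with earlier results of these data known. Members get no p. Some genes are not reported here and were left out of the lists, their counts and the named genes. Named genes are the members, each list's genes past the threshold and its 3 with the highest TPM, the 3 most correlated genes per member (log2 CPM, prior count 2), and *Dnm1l*. Beyond these, *Cxcl12*, *Cx3cl1*, *Rarres2*, *Cmklr2*, *Ly6c2*, *Ngp*, *Ltf*, *Csf3r* and markers at 0 are named as ligands or markers, chosen after their values were seen.

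Same-numbered libraries deviated together (Pearson's r of 0.510, 0.204 and 0.298 across 12248 genes averaging 1 CPM or more). As each exceeded 0.1, the number was treated as a pairing, which comes from these values and not from a label. WT library 2 with Drp1KO library 3 had an r of 0.326, so the numbers do not single out partners for libraries 2 and 3. Alternatives were DESeq2 1.42.0, median-of-ratios factors, library size only, filterByExpr, no filter beyond 1 count, length-scaled counts, the replicate block and leaving out each library. Libraries 2 and 3 alone were added after seeing the data.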

Additional observations from a re-analysis of the deposited data

How the results depend on the processing

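Among all genes tested, 621 passed in edgeR, 1155 in DESeq2, 1065 with no filter beyond 1 count, 1880 with libraries 2 and 3 alone, and 2212 (1246 higher and 966 lower) with the replicate block. The count was 181 to 904 when a library was left out, lowest without WT library 2, and 217, 268 and 348 without WT library 3, Drp1KO library 2 and Drp1KO library 3. Members counted were 0 in edgeR, 2 in DESeq2, with no filter beyond 1 count and with libraries 2 and 3 alone, 3 with the replicate block, and 0 to 1 with a library left out (*Cxcr4* without WT library 1, *Ccr1* without WT library 3). Ligands counted were 7 with no filter beyond 1 count, with the replicate block and with libraries 2 and 3 alone, and 0 to 6 with a library left out. Signalling genes were 6 with the replicate block and with libraries 2 and 3 alone, and 1 to 3 with a library left out. The replicate block also called 1 chemerin receptor, *Cmklr1*. The fold changes of the 6 members stayed within 1 SD between replicates of the values given under each alternative, and those of *Ccr3* and *Cx3cr1* changed sign without Drp1KO library 3 and Drp1KO library 1 in turn (-0.15 and 0.08). With length-scaled counts *Treml4*, *Csf1r* and *Mrc1* lost the threshold. As counts per kilobase of the longest transcript, scaled like TPM, mean levels were 112 for *Cxcr4*, 4.61 for *Ccr3* and 0.999 for *Cx3cr1*, in place of 70.6, 3.41 and 0.652 TPM. With a library left out, the difference in the share of *Ccrl2-203* ran from -0.20 to 2.56 percentage points and that of *Ccrl2-201* from -2.15 to 0.55. The SE was 0.26 for *Ccr2*, 0.27 for *Cx3cr1* and 0.26 for the deeper *Ccrl2*, and *Ackr3* was below the floor. The cause of these differences between settings was not tested.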
